A study of Mus musculus with 5 samples.

Results

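The first 4 h of lipopolysaccharide (LPS) were described in mouse bone marrow-derived macrophages by setting 1 RNA sequencing library of stimulated cells against 1 library of cells at 0 h. All genes that averaged 1 FPKM or more across the 5 columns of the time course were taken, 9795 of the 13339 listed. FPKM are counts of sequenced fragments scaled by transcript length and library size. The study followed wild-type macrophages, from C57BL/6 mice of 8 weeks, at 0, 4, 8, 12 and 24 h after LPS at 100 ng/ml, with 1 library at each time. Marrow monocytes had been cultured for 5 days with M-CSF, the growth factor on which macrophages depend. The 0 h group had received no LPS for any length of time, and untreated cells kept in culture for 4 h were not among the samples, so that LPS and time in culture cannot be told apart. With 1 library a side there was no replicate and no test, and every difference given here is a difference between these libraries.

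LPS is a glycolipid of the outer membrane of Gram-negative bacteria that macrophages sense through TLR4. The receptor signals through NF-kappaB, MAP kinases and interferon regulatory factors to induce cytokines, chemokines and interferon-stimulated genes. In these libraries many transcripts were also lower at 4 h than at 0 h, among them some genes of lineage factors, surface receptors, nutrient sensing and metabolism. The lower genes are the main subject here.

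The labels name macrophages, while 1 protocol field speaks of mDCs. All 10 macrophage markers passed the filter, with a summed level of 3564 FPKM at 0 h and 3406 at 4 h. Of 10 dendritic cell markers, 9 were listed, and their summed level was 4.69 FPKM at 0 h and 8.51 at 4 h. Ccr7 alone passed the filter, and the defining genes Flt3, Zbtb46, Xcr1 and Clec9a were each under 0.5 FPKM in both libraries. Neutrophil markers summed to 344 and 324 FPKM, mostly S100a8 and S100a9, erythroid and megakaryocyte markers to 80.7 and 59.97, stromal markers to 11.5 and 13.5, mast cell markers to 3.79 and 4.38 and lymphoid markers to 3.33 and 0.63. In the lymphoid list Gzmb was listed at 0 without LPS, and Cd79a and Nkg7 at 4 h. The part of other cells in the results was not tested. In whole cultures, fewer cells of a type and less RNA per cell cannot be told apart.

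The 4 h library had lower FPKM for most genes. The median gene stood at -0.70 relative to 0 h as a difference of log2(FPKM + 1). For this reason all 4 h values were multiplied by 1 factor, 1.776, which sets the median FPKM ratio to 1, and this is called centring. A gene is called higher or lower when its centred value differed at least 2-fold from that at 0 h, that is by at least 1 on the log2(FPKM + 1) scale, which understates the fold of low genes. Differences and medians below are on this centred scale, 4 h minus 0 h, and FPKM are as deposited. Depth, estimated from the steps between low values, came to 18800000 reads at 0 h and 18900000 at 4 h, and the 95% Poisson intervals given here cover counting error only. Genes that share at least 20% of their exonic bases with another coding gene are marked where they are named, since reads there may belong to either.

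Among the 9795 genes, 1472 were lower (15.0%) and 2175 higher (22.2%). The lower genes were 40.4% of those apart, and all later counts are to be read against these shares. Without centring, 3729 genes were lower and 1197 higher, so that 24.3% of those apart were higher instead of 59.6%. With the libraries scaled instead to equal medians of FPKM, 1857 were lower and 1914 higher, and 50.8% of those apart were higher. The balance of higher and lower genes thus depends on the scaling. A difference of 4-fold or more downward was seen in 294 genes, of 8-fold or more in 63 and of 16-fold or more in 13, against 1012, 511 and 265 upward. Abundant transcripts were among the lower genes, but less often than genes in general. Of 706 genes with at least 100 FPKM at 0 h, 65 were lower, as were 166 of 1415 with at least 50. Both shares were below the 15.0% over all genes. The lower genes together held 11.1% of the summed FPKM at 0 h and 2.59% at 4 h. The higher genes held 10.9% and 49.1%. The 147 genes of the classic cytokine, chemokine and interferon lists, of which 138 were higher, held 0.758% and 15.1%. Of the 2175 higher genes, 2037 were outside those lists.

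The difference moved with transcript length and base composition. In the 10% of genes with the shortest transcripts (median 963 nt) the median was -0.56 and 23.4% were lower. In the 10% with the longest (median 7851 nt) the median was 0.61 and 6.15% were lower. By GC content of the transcript, medians ran from 0.46 in the lowest 10% (40.02% GC) to -0.53 in the highest (59.6% GC). Lower genes had a median transcript of 2471 nt with 53.3% GC, and higher genes of 3760 nt with 47.7% GC. A median with both trends removed is therefore given beside each gene list, and is called the trend-free median. With both trends removed, 1040 of the 1467 lower genes with a known length were still lower, and so were all 293 of those at least 4-fold lower. The last count was largely built in, since genes at least 4-fold lower lay well past the 2-fold line.

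**Figure D1:**
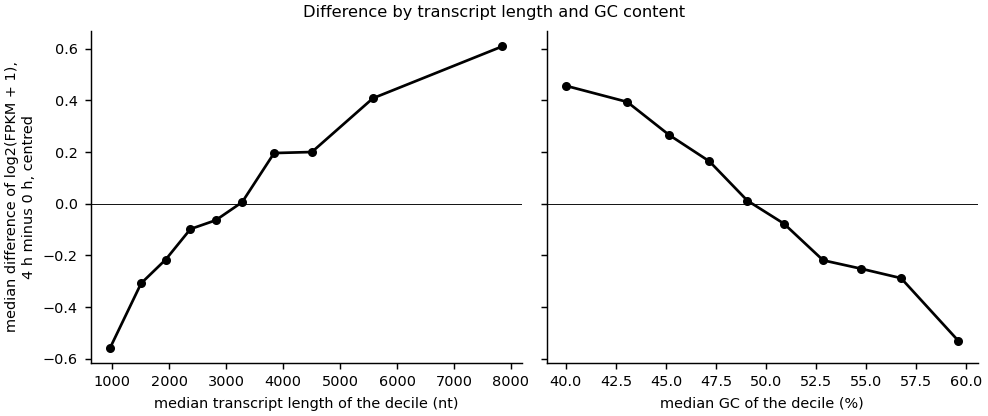
Median centred difference of log2(FPKM + 1), 4 h minus 0 h (vertical axis), in groups of 10% of the genes ordered by transcript length in nt (left) and by GC content in percent (right), each point 1 group at its median length or GC. The medians climb from -0.56 to 0.61 with length and descend from 0.46 to -0.53 with GC.

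Promoter sequences are shown for the 3 genes furthest down and the 3 furthest up, outside the classic lists, that had exactly 1 promoter window in RefSeq (GRCm38.p6). With 3 genes a side these are examples, and they cannot show by themselves how CpG content differs at the ends of the range. Each sequence is the 250 bases before the annotated start, 5′ to 3′ in the direction of the gene, with CpG dinucleotides in capitals. The positions are chr1:128592300-128592549, minus strand, for Cxcr4, chr7:47050390-47050639, plus strand, for Tmem86a, and chr19:41802085-41802334, minus strand, for Arhgap19. For the higher genes they are chr14:103046762-103047011, plus strand, for Acod1, chr1:150099781-150100030, plus strand, for Ptgs2, and chr9:7272264-7272513, plus strand, for Mmp13.
Cxcr4: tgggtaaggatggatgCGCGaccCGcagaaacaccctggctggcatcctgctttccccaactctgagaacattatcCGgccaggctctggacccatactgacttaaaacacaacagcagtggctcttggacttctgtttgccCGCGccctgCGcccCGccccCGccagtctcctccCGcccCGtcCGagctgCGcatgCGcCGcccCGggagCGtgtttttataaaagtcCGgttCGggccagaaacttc
Tmem86a: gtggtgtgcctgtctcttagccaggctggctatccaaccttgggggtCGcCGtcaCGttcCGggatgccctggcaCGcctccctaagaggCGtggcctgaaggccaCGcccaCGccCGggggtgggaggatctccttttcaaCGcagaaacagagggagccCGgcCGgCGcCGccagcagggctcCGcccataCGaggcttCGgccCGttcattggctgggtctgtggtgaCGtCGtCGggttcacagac
Arhgap19: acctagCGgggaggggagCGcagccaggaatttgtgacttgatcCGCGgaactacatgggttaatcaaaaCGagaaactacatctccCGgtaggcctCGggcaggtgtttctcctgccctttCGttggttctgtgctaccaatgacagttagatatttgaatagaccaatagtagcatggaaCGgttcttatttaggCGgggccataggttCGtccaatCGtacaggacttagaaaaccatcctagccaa
Acod1: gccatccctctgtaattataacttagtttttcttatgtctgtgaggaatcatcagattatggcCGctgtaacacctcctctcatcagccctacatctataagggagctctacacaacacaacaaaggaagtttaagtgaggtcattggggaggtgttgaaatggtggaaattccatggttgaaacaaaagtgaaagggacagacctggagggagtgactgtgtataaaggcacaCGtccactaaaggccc
Ptgs2: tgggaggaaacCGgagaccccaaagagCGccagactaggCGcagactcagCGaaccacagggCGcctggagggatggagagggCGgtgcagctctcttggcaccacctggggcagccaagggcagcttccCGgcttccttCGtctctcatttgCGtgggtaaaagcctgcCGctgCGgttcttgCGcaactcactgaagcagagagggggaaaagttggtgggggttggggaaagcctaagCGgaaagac
Mmp13: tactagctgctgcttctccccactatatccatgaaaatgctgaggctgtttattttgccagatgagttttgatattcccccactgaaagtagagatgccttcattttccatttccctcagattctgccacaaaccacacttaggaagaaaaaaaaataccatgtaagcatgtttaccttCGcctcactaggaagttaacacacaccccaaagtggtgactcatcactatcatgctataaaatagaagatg

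Cxcr4, Tmem86a and Arhgap19 held 19, 21 and 12 CpG in these bases, and Acod1, Ptgs2 and Mmp13 held 2, 13 and 1. The 300-base windows around the starts of 6370 genes were compared in the same way. Unlike the 6 sequences, these groups did not leave out the classic cytokine and interferon lists, whose median differences were 5.25 and 4.59. How much of the shares below came from the classic genes was not tested. The median ratio of observed to expected CpG was 0.795 over all of them. It was 0.754 in the 168 genes at least 4-fold lower, 0.75 in the 467 genes 4- to 16-fold higher and 0.385 in the 167 genes at least 16-fold higher. Genes at the lower end were thus near the value of all genes, and those at the upper end were below it. The ETS motif CCGGAAG was found in 13.7% of the windows of genes at least 4-fold lower, in 25.1% of those within 2-fold and in 21.9% of all. It was also less frequent on the higher side, in 12.0% of the windows of genes 4- to 16-fold higher and 7.19% of those at least 16-fold higher. The interferon response element, read as GAAA, any 2 bases and GAAA, was in 22.8% of the windows of genes at least 16-fold higher, in 0.00% of those at least 4-fold lower and in 3.64% of all. TATAAA was in 20.4%, 8.93% and 6.75% of the same groups. The E-box CACGTG was in 13.1% of the windows of genes at least 4-fold lower against 10.9% of all, and the AP-1 motif TGACTCA in 5.36% against 3.42%. In genes at least 16-fold higher the E-box was in 5.99% of the windows and the AP-1 motif in 9.58%. Both strands were searched, no motif listed holds another, and a match is a description of letters. The letters CCGGAAG and CACGTG each hold a CpG, so their shares are tied to the CpG content of the windows.

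**Figure D2:**
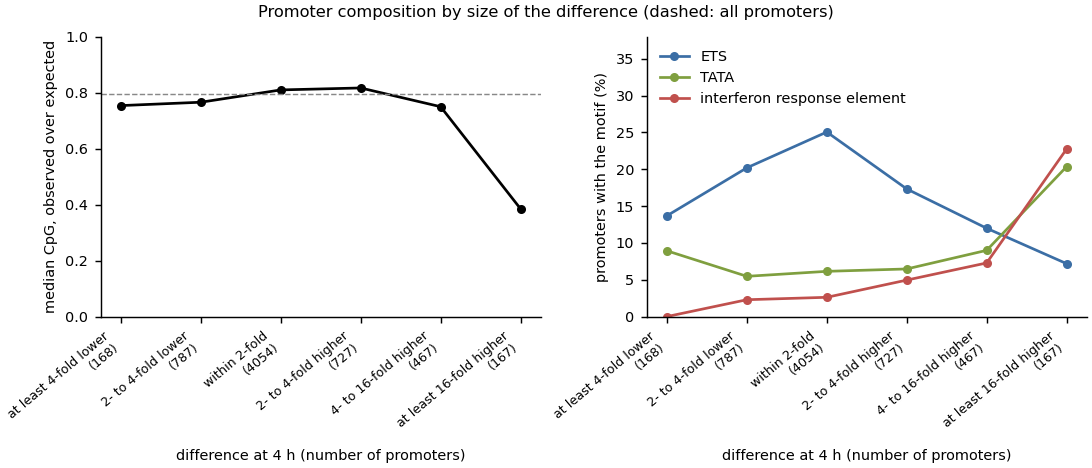
Left, median ratio of observed to expected CpG (vertical axis) in 300-base promoter windows of genes grouped by their difference at 4 h (horizontal axis, number of windows in brackets), with the value over all windows dashed. Right, percent of windows with the ETS, TATA and interferon response element letters. CpG is 0.385 in the genes at least 16-fold higher and 0.754 in those at least 4-fold lower, and ETS letters are most frequent (25.1%) in genes within 2-fold.

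The 40 genes furthest down, among those with at least 10 FPKM in 1 of the libraries, came from many functions. They ran from 14.9 to 493 FPKM at 0 h, with a median of 49.3, and from 0.14 to 22.3 FPKM at 4 h, with a median of 1.44. Each had its 4 h interval wholly below its 0 h interval, on FPKM that were not centred. The choice of the largest falls in these same values largely fixed that. The medians of the 40 genes at 8, 12 and 24 h were 2.11, 6.99 and 14.8 FPKM, beside 7.87, 8.91 and 10.8 for all genes. For 30 of them 4 h was the lowest of the 5 libraries, for 9 it was 8 h and for 1 it was 12 h. Since the genes were chosen at 4 h, a return toward other values at later times is partly built into the choice. Of the 60 genes in both directions, 1 shared exonic bases with another coding gene, Lyl1 with 0.2% of them.

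**Figure D3:**
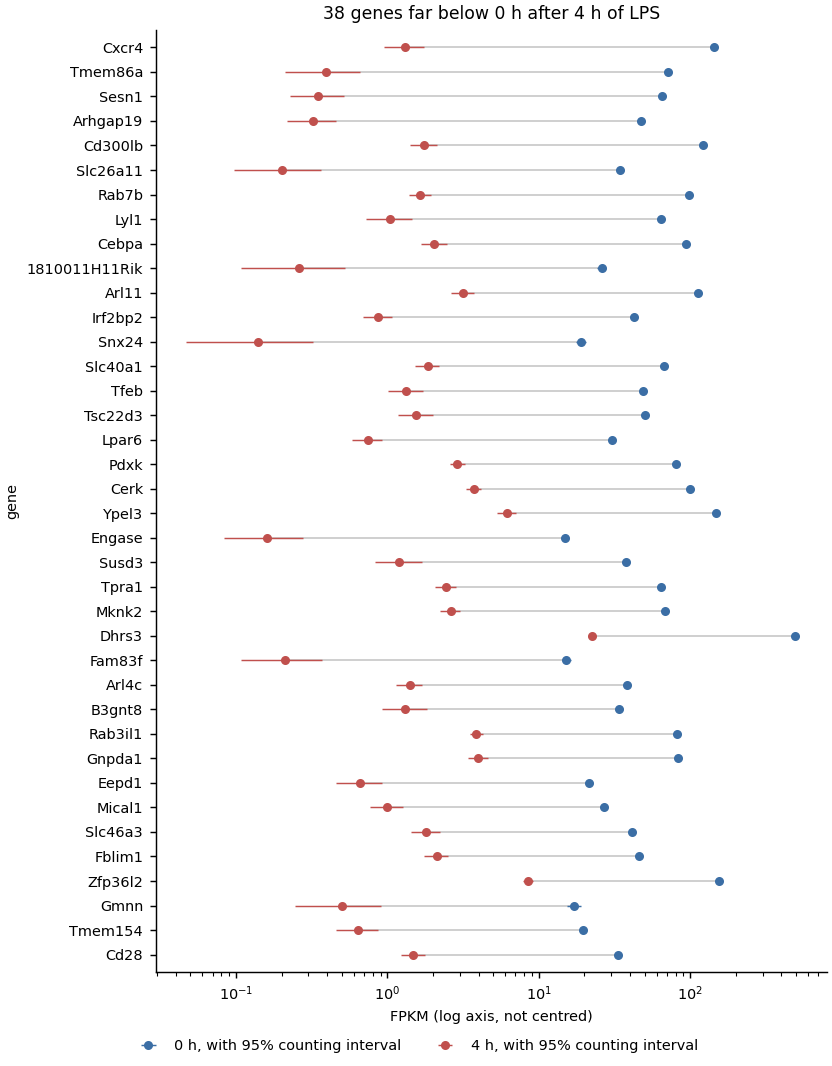
FPKM at 0 h (blue) and at 4 h (red), on a log axis and not centred, of 38 of the 40 genes furthest down with at least 10 FPKM in either library. Bars are 95% Poisson intervals from the estimated depth, for counting error only. In every gene the 4 h point lies left of the 0 h point, from Cxcr4 (142 and 1.31 FPKM) to Cd28 (33.3 and 1.48 FPKM).

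Cxcr4, the receptor for the chemokine CXCL12 that holds myeloid cells in the marrow, had 142, 1.31, 1.6, 7.1 and 18.5 FPKM at 0, 4, 8, 12 and 24 h. The 4 h value rested on about 45 reads, with an interval of 0.95 to 1.75 FPKM, and the 0 h value on about 4833. It was 61.2-fold lower after centring, and all later libraries were below that of 0 h. Tmem86a, which encodes an enzyme that cleaves the vinyl ether bond of lysoplasmalogens, had 70.95, 0.39, 3.35, 14.1 and 24.8 FPKM. This 102-fold centred difference rested on about 13 reads at 4 h. Snx24, a sorting nexin, had 19.1, 0.14, 1.09, 2.39 and 9.65 FPKM, and about 5 reads at 4 h, so its fold is known only loosely (interval 0.05 to 0.32 FPKM at 4 h). Dhrs3, a reductase that turns retinaldehyde back into retinol, was the most abundant of the 40, with 493, 22.3, 21.1, 36.1 and 77.3 FPKM. Its 12.4-fold difference rested on about 986 reads at 4 h.

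The later libraries set these genes apart from each other. Slc40a1, or ferroportin, the only known iron exporter of the cell surface, had 67.1, 1.84, 1.51, 7.52 and 32.9 FPKM. In contrast Slc46a3, a lysosomal transporter, had 41.1, 1.80, 0.52, 0.42 and 1.92 FPKM over the 5 times. Cd28, best known as a costimulatory receptor of T cells, had 33.3, 1.48, 0.50, 1.05 and 1.36 FPKM. Tmem154 was lowest at 8 h, with 0.11 FPKM against 19.4 at 0 h.

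Transcription factors of the myeloid lineage parted strongly. Of 60 measured, 32 were higher and 16 lower, and the median was 1.17, with a trend-free median of 0.83. Of the 10 macrophage markers 6 were higher, among them Cd14, Mertk, Fcgr1, Spi1 and Adgre1, while 1 was lower and 3 were within 2-fold. Repressors that pair with MAX in place of MYC differed among themselves. Mnt was lower, with 19.3 and 0.71 FPKM at 0 h and 4 h, and Mxd4 as well, with 12.0 and 0.64, but Mxd1 was higher, with 5.38 and 68.5. Beside Mxd1 the highest differences belonged to the AP-1 family partners Batf2 (2.99 and 92.7 FPKM) and Batf (5.90 and 84.5), to the repressor gene Gfi1 (0.10 and 11.9) and to Ikzf1, which encodes Ikaros (16.6 and 171). Irf2bp2, a corepressor that binds interferon regulatory factor 2, was among the 40, with 42.5 FPKM at 0 h and 0.87 at 4 h.

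Nuclear receptors sense lipids and hormones, and 7 of 28 receptors and coregulators were lower and 7 higher, with a median of 0.20 and a trend-free median of -0.22. Among those with a mean of at least 5 FPKM in these libraries the median was -0.43. The partner receptors of many heterodimers were in the lower group. Rxra had 31.3 FPKM at 0 h and 2.26 at 4 h, and Rxrb 25.7 and 4.29. Pparg, which directs lipid storage genes, had 36.9 and 3.85 FPKM. Nr2f6 was lower too (11.3 and 0.83 FPKM), although 43.1% of its exonic bases are shared with Ocel1, so its value is less certain. Higher were the glucocorticoid receptor gene Nr3c1 (16.01 and 40.9 FPKM) and the coregulator gene Ncoa7 (6.94 and 28.0). Tsc22d3, the glucocorticoid-induced leucine zipper gene, was lower, with 49.9, 1.54, 1.10, 3.30 and 17.7 FPKM over the 5 times.

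In the circadian clock list, 5 of 16 genes were lower and 4 higher (median -0.03, trend-free -0.02), and the median was -0.77 among those with a mean of at least 5 FPKM. The output factors of the clock that bind D-box elements were on the lower side. Tef had 16.3 FPKM at 0 h and 0.75 at 4 h, and Dbp 8.74 and 0.13, with 29.3% of the exonic bases of Dbp shared with Sphk2. Their counterpart Nfil3, which represses the same elements, had 6.84 and 36.5 FPKM. Per1, a core repressor, was at 6.46 and 0.38 FPKM, and Bhlhe40 at 25.3 and 3.6. Clock itself stayed within 2-fold (3.78 and 4.53 FPKM, difference 0.92).

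Genes known as p53 targets went both ways. Of 36, 8 were lower and 11 higher, with a median of -0.26 and a trend-free median of 0.08, and the median was 0.73 among those with a mean of at least 5 FPKM. Cdkn1a, the cell cycle inhibitor p21, was at 34.9 FPKM before LPS and 1047 at 4 h. Gadd45a was at 67.3 and 9.76 FPKM, whereas its relative Gadd45b was at 63.2 and 356. Xpc, which recognises bulky DNA damage, was at 5.24 and 0.31 FPKM, and Trp53inp1 at 6.62 and 0.63. Of 28 immediate early and AP-1 factors, 3 were lower and 8 higher (median 0.40, trend-free 0.47). The serum response coactivator genes Mkl1 (30.1 and 7.31 FPKM) and Mkl2 (9.23 and 1.73) were lower, whereas Jdp2 (3.73 and 24.0) was higher.

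Receptors of the cell surface differed within families. Receptors for lipids and nucleotides are read by G proteins or, for P2rx7, open as an ion channel on ATP. Of 22, 5 were lower and 9 higher (median 0.42, trend-free 0.23). Lpar6, a receptor for lysophosphatidic acid, had 30.4, 0.74, 0.96, 2.86 and 5.88 FPKM over the 5 times, and Lpar5 had 5.76 at 0 h and 0.04, about 1 read, at 4 h. Lpar1, which binds the same lipid, had 0.25 and 6.91 FPKM. The sphingosine-1-phosphate receptor gene S1pr1 was lower (15.1 and 1.49 FPKM), as was P2rx7 (17.5 and 3.48). Both adenosine receptors among the 5 highest, Adora2a (0.35 and 53.02 FPKM) and Adora2b (0.91 and 13.01), raise cyclic AMP.

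Chemoattractant receptors guide migration, and of 14 measured, 3 were lower and 5 higher (median 0.74, trend-free 0.36). Beside Cxcr4, Ccr2, the monocyte receptor for CCL2, was lower (8.42 and 1.14 FPKM at 0 h and 4 h), as was the complement receptor gene C5ar2 (5.48 and 0.47). The formyl peptide receptors stood on the other side, Fpr2 with 2.43 and 163 FPKM and Fpr1 with 1.63 and 55.0. Other G protein-coupled receptors split into 12 lower and 11 higher of 30, with a median of -0.17 and a trend-free median of -0.11, and only 7 were within 2-fold. The median was 0.46 among those with a mean of at least 5 FPKM in these libraries. Gpr65, which senses protons, was at 34.5 FPKM before LPS and 1.73 at 4 h. The orphan receptor genes Gpr162 (45.7 and 3.13 FPKM) and Gpr146 (19.1 and 1.05) were lower too, and Tpra1 had 64.5 and 2.42. Higher were the receptor for medium-chain fatty acids Gpr84 (1.24 and 64.7 FPKM) and the niacin receptor Hcar2 (0.80 and 38.7).

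Downstream of such receptors, 10 of 33 G protein subunits, RGS proteins and arrestins were lower and 10 higher (median -0.03, trend-free 0.08). RGS proteins speed the switching off of G proteins, and arrestins uncouple receptors. Both arrestins were lower, Arrb1 with 32.2 FPKM at 0 h and 2.68 at 4 h and Arrb2 with 149 and 18.9. Rgs2 (36.3 and 2.40 FPKM) and Rgs10 (244 and 42.2) were lower, while Rgs1 (22.8 and 102) and Rgs14 (8.51 and 22.3) were higher. Among 27 genes of cyclic nucleotide signalling 4 were lower and 5 higher, with a median of -0.20 and a trend-free median of -0.24. Pde4b, which degrades cyclic AMP, had 3.17 and 80.2 FPKM. Rapgef3, the cyclic AMP sensor EPAC1, had 3.99 and 0.11, and Prkaca, a catalytic subunit of protein kinase A, 29.2 and 7.79.

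Paired immune receptors carry inhibiting or activating signals through short tails and adaptors. Of 42 measured, 7 were lower and 15 higher (median 0.13, trend-free 0.13), and among those with a mean of at least 5 FPKM the median was -0.31. Cd300lb was lower, with 120.42 FPKM at 0 h and 1.75 at 4 h, a difference of -4.89. The inhibitory receptor genes Cd300a (84.5 and 11.5 FPKM at 0 h and 4 h) and Cd200r1 (62.2 and 10.4) were lower too. With Cd300lf (11.4 and 2.22), 3 genes of the CD300 family were among the 5 lowest. Highest was Slamf7 (42.6 and 540 FPKM), and Pilra (2.19 and 19.8) and Clec5a (7.47 and 23.4) were also higher. Pilra and Pilrb1 are similar genes and their reads may be divided between copies. Phagocytic and scavenger receptors were mostly kept. Of 26, only Clec10a was lower (25.6 and 6.64 FPKM), and 11 were higher, among them Clec4e, the receptor Mincle (12.7 and 776), and Msr1 (45.1 and 317). Their median was 0.41, and 0.33 trend-free.

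No integrin gene or integrin regulator was lower. Of 23 measured, 13 were higher and 10 within 2-fold, with a median of 1.10 and a trend-free median of 0.86. Integrins anchor cells to matrix and to other cells. Itga4 had 9.37 FPKM at 0 h and 80.0 at 4 h, Itgal 10.03 and 79.8, Itgav 12.6 and 67.7, and the fibronectin receptor chain Itga5 26.8 and 125. The lowest member was Itgb5, with 114 and 39.3 FPKM and a difference of -0.70. Itgb8 was listed at 0 without LPS and had 4.34 FPKM in the 4 h library. For tetraspanins, which organise integrins in the membrane, 2 of 16 were lower and 1 higher, and the median of -0.33 was 0.00 once trends were removed. Tspan14 was the lowest (37.7 and 5.05 FPKM) and Tspan33 the highest (0.48 and 4.01).

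Neuropilins bind semaphorins and vascular growth factors, and these sister genes differed. Nrp1 had 56.3 FPKM at 0 h and 11.6 at 4 h, and Nrp2 26.2 and 189. Of 13 semaphorins, plexins and ephrins, 3 were lower and 5 higher (median 0.14, trend-free 0.03), and the median was 0.90 among those with a mean of at least 5 FPKM. Ion channels gave 9 lower and 14 higher of 36 (median -0.02, trend-free 0.14). Potassium channels were found on both sides. Kcnj2, an inward rectifier, had 18.1 and 0.58 FPKM, and Kcnk13 had 16.3 and 0.63, whereas the voltage-gated channel gene Kcna3 had 0.03, about 1 read, and 8.61. Store-operated calcium channel subunits split as well, Orai3 with 25.8 and 3.62 FPKM and Orai2 with 7.49 and 41.7.

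**Figure D4:**
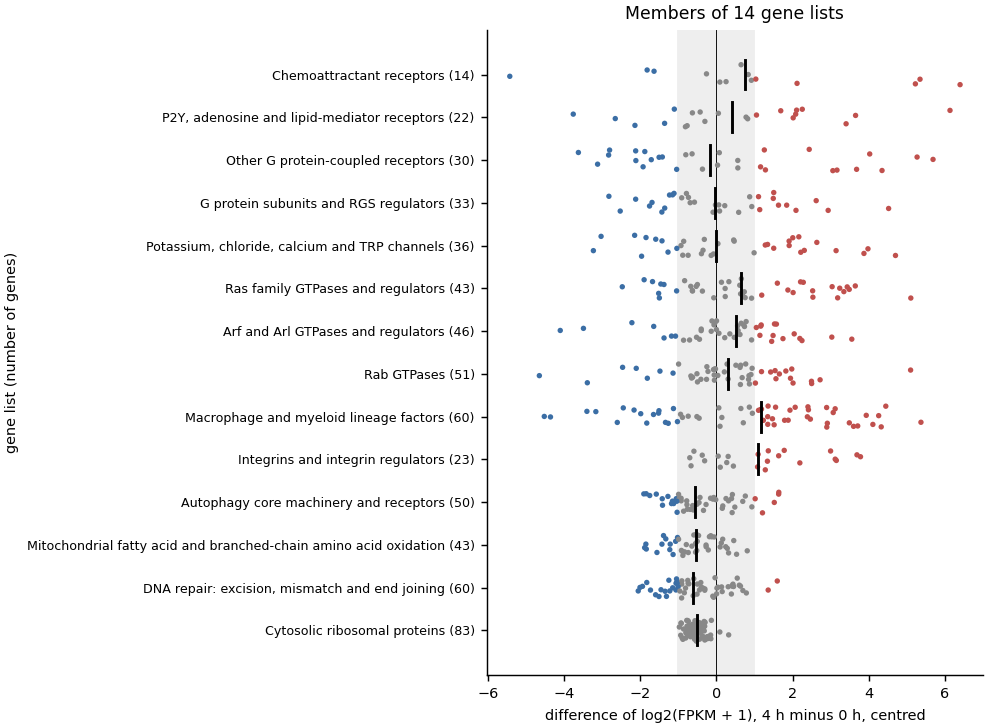
Centred difference of log2(FPKM + 1), 4 h minus 0 h (horizontal axis), of every measured member of 14 gene lists (rows, number of genes in brackets), with vertical offsets for visibility only. Blue points are at least 2-fold lower, red at least 2-fold higher, the grey band is within 2-fold and the black bar is the list median. Receptor lists spread to both sides, no integrin gene is blue, and all 83 ribosomal proteins lie in the band.

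Small GTPases act as switches that exchange factors turn on and activating proteins turn off. Among 43 Ras family genes and regulators, 8 were lower and 16 higher (median 0.64, trend-free 0.16). Rapgef2, which activates Rap proteins, was at 2.59 FPKM before LPS and 69.2 at 4 h, and Spred1, an inhibitor of the Ras pathway, at 13.3 and 101. Rasgrp3, an exchange factor that responds to diacylglycerol, was at 6.33 and 0.18 FPKM, and Dgkz, a kinase that removes diacylglycerol, at 73.7 and 5.98. In the list of 23 diacylglycerol kinases and phospholipases, 2 were lower and 6 higher (median 0.04, trend-free 0.09), and the sister kinase genes Dgkh (0.42 and 8.11 FPKM) and Dgka (6.50 and 19.3) were higher. Arf and Arl genes gave 7 lower and 14 higher of 46 (median 0.51, trend-free 0.53). Arl11 (112 and 3.14 FPKM) and Arl4c (38.3 and 1.40) were among the 40 genes furthest down, and Adap2 (17.4 and 122) was the highest.

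Phosphoinositide enzymes gave 6 lower and 13 higher of 48, and the median of 0.33 was -0.01 once trends were removed. Inpp5d encodes SHIP1, the phosphatase that removes the product of PI 3-kinase, and had 45.8 FPKM at 0 h and 2.91 at 4 h. Pik3ap1, an adaptor that brings PI 3-kinase to receptors, had 53.1 and 364 FPKM, and the regulatory subunit gene Pik3r5 76.0 and 283. Of 47 cytoplasmic tyrosine kinases, phosphatases and adaptors, 9 were lower and 17 higher (median 0.50, trend-free 0.47). Src was at 3.49 and 68.3 FPKM, while Tec was at 31.1 and 3.32. The phosphatase gene Ptpn22, which restrains Src family kinases, was at 11.5 and 0.43 FPKM. The adaptor gene Lcp2, for SLP-76, was at 18.2 and 235 FPKM, whereas the adaptor gene Lat2 was at 230.3 and 31.6, with 51.6% of its exonic bases shared with Rfc2.

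Of 45 MAP kinases and upstream kinases, 7 were lower and 12 higher (median 0.36, trend-free 0.32). Mknk2, which phosphorylates the cap-binding factor eIF4E, had 67.8, 2.61, 7.64, 29.7 and 39.5 FPKM over the 5 times. Map3k8, the kinase TPL2, was at 10.9 FPKM before LPS and 76.0 at 4 h, and Mapkapk2 at 102 and 626. Dual-specificity phosphatases gave 5 lower and 5 higher of 25 (median 0.10, trend-free -0.21). Dusp1 (9.56 and 251 FPKM) and Dusp2 (4.84 and 280), which act in the nucleus on MAP kinases, were higher. Dusp6, which acts on ERK in the cytoplasm, was at 3.99 and 0.51 FPKM, and Dusp3 at 81.8 and 14.9.

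In the Notch pathway 8 of 24 genes were lower and 9 higher (median 0.03, trend-free -0.11). The receptors Notch1 (4.99 FPKM at 0 h and 30.1 at 4 h) and Notch2 (13.9 and 88.4) and the ligand Jag1 (1.69 and 5.94) were higher. The 3 fringe glycosyltransferases, which change the ligands that Notch receptors respond to, were all lower. Lfng had 43.1 and 2.32 FPKM, Mfng 5.93 and 0.50, and Rfng 13.9 and 2.94. Of 29 genes of the TGF-beta family 4 were lower and 9 higher (median 0.50, trend-free 0.27). The receptor gene Tgfbr1 was at 40.6 and 6.95 FPKM, and its intracellular effector gene Smad3 at 2.94 and 0.43, while the activin subunit gene Inhba was at 0.21 and 6.42. Wnt and Hippo genes gave 4 lower and 12 higher of 30 (median 0.39, trend-free 0.70). The corepressors of the TLE family differed, Tle1 with 8.64 and 1.5 FPKM and Tle3 with 11.3 and 77.6. Among growth factors and their receptors, 3 of 17 were lower and 5 higher (median 0.57, trend-free 0.32), and the lower genes were Vegfa (20.3 and 2.27 FPKM), Vegfb (53.3 and 10.6) and Insr (4.55 and 0.71).

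Nutrient sensing centres on the lysosome, where the kinase mTORC1 is recruited by Rag GTPases when amino acids are present. Of 47 genes of this system, 10 were lower and 6 higher (median -0.11, trend-free -0.26). Sesn1, a sestrin that restrains mTORC1 when leucine is scarce, had 64.8, 0.35, 1.03, 1.28 and 4.81 FPKM over the 5 times. Rragd, a Rag GTPase, was at 10.4 FPKM before LPS and 0.75 at 4 h, Flcn, which acts on that Rag protein, at 32.4 and 3.57, and Lamtor4, of the scaffold that holds the Rag proteins, at 64.2 and 12.7. Prkag2, a subunit of AMP-activated kinase, was at 8.64 and 0.50 FPKM. Rictor, which defines mTORC2, was higher (1.89 and 9.83 FPKM). Among FOXO, KLF and MITF factors, 3 of 18 were lower and 7 higher, with a median of -0.55 and a trend-free median of -0.36, and the median turned to 0.66 when only genes with a mean of at least 5 FPKM in these 2 libraries were taken. Tfeb, the master factor of lysosomal genes, was at 48.6 and 1.32 FPKM, while its relative Tfec was at 10.2 and 76.2. Foxo4 was at 15.1 and 2.08 FPKM and Klf6 at 79.3 and 283.

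Lysosomal genes were abundant and most stayed within 2-fold of the median gene. Of 58 hydrolases, 8 were lower and 3 higher (median -0.24, trend-free -0.14). Sgsh, which degrades heparan sulfate and shares 21.9% of its exonic bases with Card14, was at 20.1 FPKM before LPS and 1.19 at 4 h, the phospholipase gene Pla2g15 at 138 and 11.9, and Dnase2a at 116 and 21.3. On the higher side were Ctsc, the protease that activates granule enzymes (23.5 and 206 FPKM), and Acp5 (16.8 and 89.0). Of 46 membrane proteins and transporters, 13 were lower and 6 higher (median -0.34, trend-free -0.22). Several exporters of the lysosome's products were in the lower group. Ctns, for cystine, had 17.2 and 1.94 FPKM, Pqlc2, for cationic amino acids, 14 and 1.4, Slc36a1, for small neutral amino acids, 18.5 and 2.25, and Slc17a5, for sialic acid, 24.9 and 4.71. The peptide and histidine transporter gene Slc15a3 was higher (201 and 539 FPKM). Of 18 proton pump subunits 2 were lower and 1 higher, with a median of -0.12 and a trend-free median of 0.05.

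Autophagy genes stood below the median gene as a list, with 13 of 50 lower and 5 higher, a median of -0.56 and a trend-free median of -0.62. Ulk1, the kinase that starts the process, was at 9.73 FPKM before LPS and 1.23 at 4 h. Plekhm1, which joins autophagosomes to lysosomes, was at 41.8 and 6.15 FPKM, and the cargo receptor gene Nbr1 at 27.6 and 4.83. Other cargo receptors went the other way. Optn was at 14.1 and 26.0 FPKM, Tax1bp1 at 86.1 and 140.2, and Sqstm1, or p62, at 331 and 378 with a difference of 1.02. Of the exonic bases of Sqstm1, 20.5% are shared with Mrnip.

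**Figure D5:**
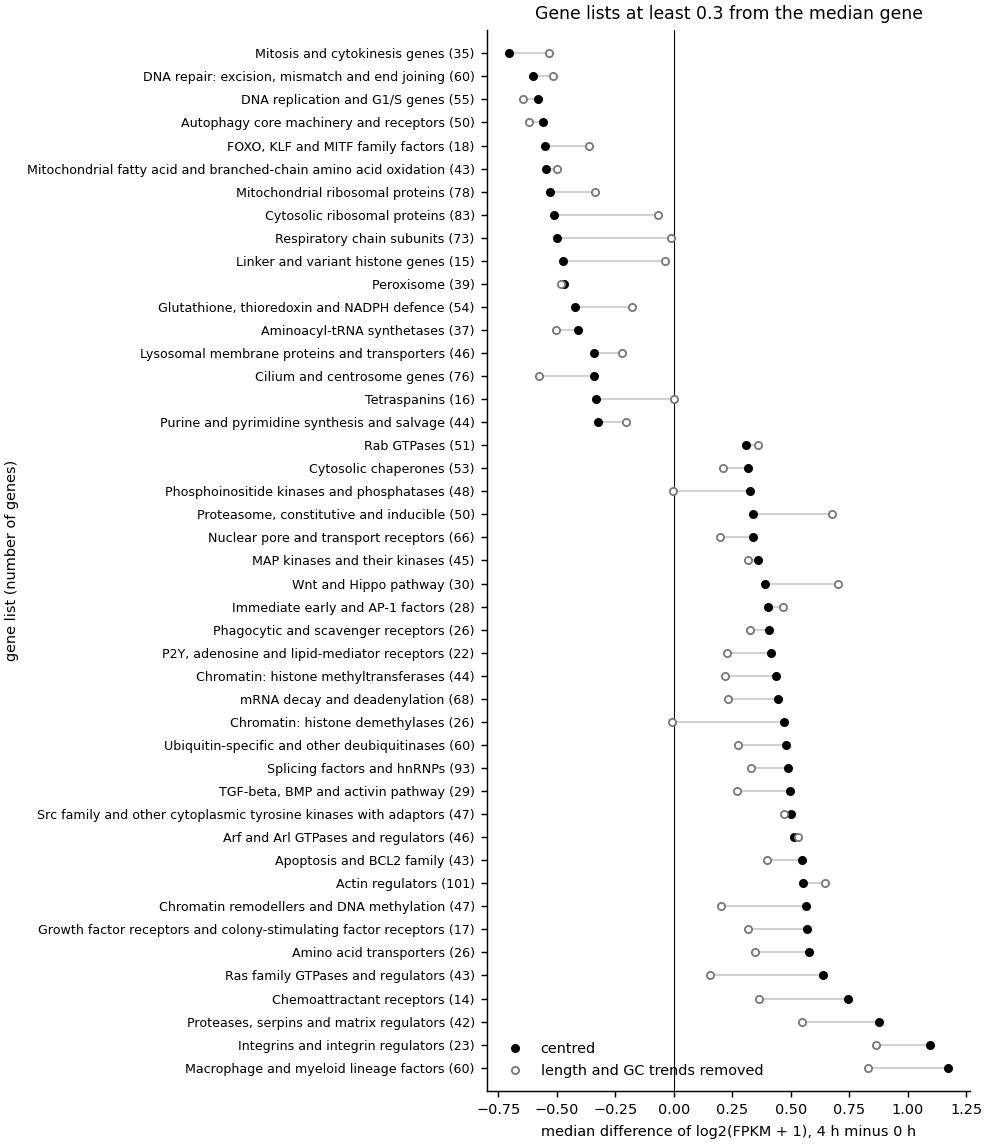
Median centred difference of log2(FPKM + 1), 4 h minus 0 h (horizontal axis), of the gene lists at least 0.3 from 0 (rows, number of genes in brackets), before (black) and after (open) the trends with transcript length and GC were removed. Families named by symbol, markers, the classic lists, the costimulator list (median 2.59) and some lists not reported here are left out. Respiratory chain and ribosomal protein medians move from -0.50 and -0.51 to -0.01 and -0.07, and that of autophagy from -0.56 to -0.62.

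Genes that burn fatty acids stood below the median gene. Of 43 genes for the oxidation of fatty acids and branched-chain amino acids, 12 were lower and 0 higher, with a median of -0.55 and a trend-free median of -0.50. Acadm, the medium-chain acyl-CoA dehydrogenase, was at 30.1 FPKM before LPS and 5.93 at 4 h. Echs1, the next enzyme of the spiral, was at 51.7 and 7.64 FPKM, and Hibch, of valine breakdown, at 5.39 and 0.44. Acadl was the highest member (49.4 and 49.2 FPKM, difference 0.81). In the peroxisome, which oxidises very long fatty acids, 10 of 39 genes were lower and 3 higher (median -0.47, trend-free -0.48). The importer gene Abcd2 had 6.81 and 0.42 FPKM, and Crot, which passes shortened chains on to mitochondria, 10.7 and 2.39. The antioxidant gene Prdx5 was on the higher side, with 269 and 853 FPKM and 28.3% of its exonic bases shared with Trmt112.

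Of 73 nuclear respiratory chain genes, 2 were lower and 1 higher, and the median of -0.50 was 0.03 with the length trend removed and -0.01 with both trends removed. Cycs, cytochrome c, was the gene on the higher side (22.4 FPKM at 0 h and 53.4 at 4 h). Of 29 genes of the citrate cycle and pyruvate entry, 3 were lower and 2 higher (median -0.07, trend-free -0.04). Idh1, which makes cytosolic NADPH, was at 163 and 25.4 FPKM and Pck2 at 9.51 and 0.55, whereas citrate synthase, Cs, was at 60.0 and 78.4 with a difference of 1.20. Mitochondrial ribosomal proteins gave 21 lower and 0 higher of 78 (median -0.53, trend-free -0.34), with Mrpl41 lowest (10.5 and 0.87 FPKM). Among 37 glycolysis and glucose uptake genes 5 were lower and 11 higher (median -0.08, trend-free 0.13). Slc2a6, a hexose transporter of internal membranes, was at 9.66 and 383 FPKM and Hk2 at 10.8 and 47.6, while Pdk2, which inhibits pyruvate entry, was at 7.49 and 0.24.

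Cerk, the kinase that makes ceramide-1-phosphate, was among the 40 genes furthest down, with 99.3, 3.72, 13.1, 28.0 and 40.1 FPKM over the 5 times. Of 37 sphingolipid enzymes, 10 were lower and 10 higher (median 0.09, trend-free 0.00). Cers6, which makes ceramide with chains of middle length, was highest, at 3.74 FPKM before LPS and 151 at 4 h, and Ugcg, the first enzyme of glycosphingolipid synthesis, was at 5.83 and 20.1. Of 51 glycerophospholipid and triglyceride enzymes, 12 were lower and 9 higher (median -0.26, trend-free -0.25). Lpin1, a phosphatidate phosphatase, was at 7.52 and 0.12 FPKM, while Pla2g4a, which releases arachidonate, was at 4.68 and 17.4. Cholesterol genes gave 7 lower and 10 higher of 45 (median 0.17, trend-free 0.14). Soat1, which esterifies cholesterol, was at 108 and 17.3 FPKM, and Ch25h, which makes an oxysterol, was listed at 0 without LPS and had 22.0 FPKM in the 4 h library.

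Iron and metal genes showed large single differences in both directions, with 11 of 57 lower and 17 higher (median 0.03, trend-free -0.08). Among the 5 lowest beside Slc40a1, the heme exporter gene Mfsd7b was at 35.1 FPKM before LPS and 3.74 at 4 h, Slc48a1, which carries heme out of the phagolysosome, at 158 and 35.7, and the ferrireductase gene Steap3 at 30.4 and 4.77. Among the 5 highest, Mt2, a metallothionein, was at 4.06 and 173 FPKM, Lcn2, which captures bacterial siderophores, at 17.6 and 183, the ferroxidase gene Cp at 0.95 and 78.6, and the zinc and iron importer gene Slc39a14 at 2.35 and 31.1.

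In arginine metabolism, Nos2 (0.32 FPKM at 0 h and 291 at 4 h), which turns arginine into nitric oxide, the arginine importer Slc7a2 (0.91 and 67.3), Ass1 (2.85 and 42.7), which helps to remake arginine, and Gch1 (6.35 and 56.4), which makes the cofactor of Nos2, were all higher. In that list of 29, 7 were higher and 5 lower (median -0.16, trend-free 0.19), and Paox, a polyamine oxidase, was at 26.0 and 2.90 FPKM. Purine and pyrimidine genes gave 5 lower and 9 higher of 44 (median -0.32, trend-free -0.20). The enzymes that split nucleosides were higher, Pnp with 49.2 and 579.9 FPKM and Upp1 with 0.13 and 15.8, while Dguok, which salvages deoxyguanosine in mitochondria, had 23.4 and 2.71. The related genes Pnp and Pnp2 may share reads, and 21.8% of the exonic bases of Pnp are shared with the model Gm49342. Of 54 glutathione, thioredoxin and NADPH genes, 10 were lower and 7 higher (median -0.42, trend-free -0.18), with Sod2 highest (22.5 and 321 FPKM).

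Among cofactor and sugar enzymes in the 40 genes furthest down, Pdxk, which activates vitamin B6, had 80.2, 2.90, 3.97, 16.2 and 12.8 FPKM over the 5 times. Gnpda1, which returns glucosamine-6-phosphate to glycolysis, was at 82.8 FPKM before LPS and 3.98 at 4 h. Engase, which cleaves free N-glycans in the cytosol, was at 14.9 and 0.16 FPKM. One-carbon and serine genes gave 4 lower and 4 higher of 27 (median -0.15, trend-free -0.16). The folate carriers Slc46a1 (5.59 and 1 FPKM) and Slc19a1 (4.72 and 1) were lower. Of 26 amino acid transporters 5 were lower and 10 higher, with a median of 0.58 and a trend-free median of 0.35, and the median turned to -0.03 among genes with a mean of at least 5 FPKM in these libraries. Slc43a2, a carrier of large neutral amino acids, was at 109 and 7.24 FPKM, and Slc7a11, the cystine importer, at 3.44 and 27.4.

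Genes of DNA replication, mitosis and excision repair had medians below the median gene, and these were nearer to 0 among genes with a mean of at least 5 FPKM in these libraries, at -0.40, -0.23 and -0.14. With a pseudocount of 5 the replication and mitosis medians were -0.25 and -0.34. Replication genes gave 18 lower and 5 higher of 55 (median -0.58, trend-free -0.65). Gmnn, or geminin, which stops the same origin from firing again, was at 17.1 FPKM before LPS and 0.50 at 4 h, and the helicase subunit gene Mcm7 at 4.88 and 0.63. E2f8 (1.37 and 6.75 FPKM) and Ccne1 (1.06 and 5.04) were higher. Mitosis genes gave 12 lower and 5 higher of 35 (median -0.70, trend-free -0.54). Cdc25b, which triggers entry into mitosis, was at 8.32 and 0.19 FPKM and Cenpa, the centromeric histone, at 12.6 and 1.37, whereas Mki67, the proliferation marker, was at 1.36 and 20. Among other cyclins and kinases of the cycle, 6 of 45 were lower and 16 higher (median 0.05, trend-free 0.03). Ccnd2 was at 0.58 and 50.4 FPKM, and its partner Cdk4 at 66.1 and 10.6, with 26.7% of the exonic bases of Cdk4 shared with Tspan31.

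Repair by excision, mismatch correction and end joining gave 19 lower and 2 higher of 60 (median -0.60, trend-free -0.52). The base excision glycosylase genes Ogg1 (5.65 FPKM before LPS and 0.49 at 4 h), Nthl1 (4.55 and 0.25) and Mbd4 (4.92 and 0.44) were lower, while the glycosylase gene Tdg (11.8 and 17.9) was higher. In the list of homologous recombination and Fanconi anaemia genes, 6 of 35 were lower and 4 higher (median -0.15, trend-free 0.05). Fance was at 12.2 and 0.72 FPKM, while Atm, the kinase that senses breaks, was at 1.23 and 7.12 and Rbbp8, which trims broken ends, at 5.75 and 21.7.

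Chromatin lists had medians on both sides of the median gene. Histone methyltransferases gave 3 lower and 10 higher of 44 (median 0.44, trend-free 0.22), with Suv420h2 lowest (19.96 FPKM at 0 h and 0.74 at 4 h) and Setdb2 highest (2.77 and 35.7). Demethylases gave 2 lower and 6 higher of 26, and their median of 0.47 was -0.01 once trends were removed. Kdm2b had 9.55 and 1.40 FPKM and Kdm4a 9.60 and 39.5. Of 49 genes of histone acetylation 7 were lower and 10 higher (median 0.07, trend-free 0.07), and the deacetylase gene Hdac5 was at 32.3 and 2.24 FPKM. Remodellers and DNA methylation genes gave 5 lower and 16 higher of 47 (median 0.56, trend-free 0.20). The DNA methyltransferase genes Dnmt1 (14.3 and 1.96 FPKM) and Dnmt3a (36.1 and 7.96) were lower and Tet2, which oxidises methylcytosine, was higher (2.75 and 19.7). Polycomb genes gave 5 lower and 7 higher of 29 (median 0.28, trend-free -0.07). Linker and variant histone genes gave 6 lower and 3 higher of 15, and their median of -0.48 was 0.11 with the length trend removed and -0.04 with both trends removed. H1f0 was at 46.5 and 4.27 FPKM, while H3f3b, a variant H3 gene, was at 205 and 636.

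Genes of RNA turnover differed within a family. The proteins of the ZFP36 family bind AU-rich elements and send transcripts to decay. Zfp36, or tristetraprolin, was at 82.3 FPKM before LPS and 793 at 4 h. Its relatives were lower, Zfp36l2 with 154, 8.48, 6.89, 24.3 and 48.8 FPKM over the 5 times and Zfp36l1 with 55.1 and 6.88 at 0 h and 4 h. The endonuclease genes Zc3h12a, or regnase-1 (10.5 and 84.7 FPKM), and Zc3h12c (1.03 and 20.7) were higher. In the list of 68 decay and deadenylation genes 5 were lower and 21 higher (median 0.44, trend-free 0.23). Splicing genes gave 3 lower and 22 higher of 93 (median 0.49, trend-free 0.33), with Hnrnpl lowest (94.8 and 18.7 FPKM) and Prpf38a highest (11 and 61.5). Nuclear pore and transport genes gave 1 lower and 20 higher of 66 (median 0.34, trend-free 0.20), and Kpna3, an importin, was at 19.9 and 265 FPKM. Genes of RNA polymerase II, elongation and Mediator gave 9 lower and 13 higher of 69 (median 0.11, trend-free 0.27). Small RNA and m6A genes gave 3 lower and 8 higher of 31 (median 0.29, trend-free 0.14), where Ago4 was at 6.69 and 0.46 FPKM and Mov10 at 6.60 and 60.1.

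In each list of the translation machinery most genes were within 2-fold, and the list medians lay on both sides of the median gene. All 83 cytosolic ribosomal proteins were within 2-fold of the median gene, from -0.97 for Rpl36 to 0.32 for Rpl24, with a median of -0.51 and a trend-free median of -0.07. Copies of these genes may share their reads. Ribosome biogenesis genes gave 6 lower and 12 higher of 113 (median -0.13, trend-free -0.02), and translation factors 5 lower and 11 higher of 65 (median 0.20, trend-free 0.21). Aminoacyl-tRNA synthetases gave 7 lower and 4 higher of 37 (median -0.41, trend-free -0.51). The mitochondrial enzymes Cars2 (6.75 FPKM at 0 h and 0.93 at 4 h) and Tars2 (8.12 and 1.22) were the lowest, and the cytosolic enzymes Wars (17.3 and 45.5), which interferon induces, and Rars (36.2 and 85.1) the highest.

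Lists of protein quality control differed in their shares of higher genes. Proteasome genes gave 1 lower and 11 higher of 50 (median 0.34, trend-free 0.67). The interferon-inducible subunits Psmb8 (104 FPKM at 0 h and 209 at 4 h), Psmb9 (37.0 and 95.6) and Psmb10 (72.3 and 160) were higher, and the 4 lowest members were the assembly chaperones Psmg1 to Psmg4, of which Psmg1 was lower (7.11 and 1.19). Deubiquitinases gave 4 lower and 20 higher of 60 (median 0.48, trend-free 0.27). Beside the induced Usp18 (4.88 and 309 FPKM), Usp25 (19.4 and 141) and Usp12 (16.3 and 108) were higher, and Usp20 (3.92 and 0.30) was the lowest. Ubiquitin ligases of 5 families gave 30 lower and 60 higher of 214 (median 0.19, trend-free -0.01), from Trim47 (16.3 and 0.93 FPKM) to Herc6 (4.44 and 95.6). Cytosolic chaperones gave 1 lower and 7 higher of 53 (median 0.32, trend-free 0.21). Genes of the endoplasmic reticulum gave 3 lower and 8 higher of 56 (median 0.09, trend-free 0.06). There the stress sensor gene Eif2ak3 (5.01 and 0.64 FPKM) and Ddit3 (24.1 and 4.73) were lower, and Ppp1r15a (15.6 and 73.9), which reverses the translation block that Eif2ak3 imposes, was higher.

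Membrane traffic held some of the largest single differences. Rab7b, which acts at late endosomes, had 97.9, 1.65, 7.81, 27.9 and 64.7 FPKM over the 5 times, and Rab3il1, an exchange factor for Rab proteins, 81.7, 3.87, 3.92, 5.06 and 10.2. In the Rab list 7 of 51 genes were lower and 14 higher (median 0.31, trend-free 0.36). The effectors Rab11fip5 (49.1 FPKM at 0 h and 4.54 at 4 h) and Rab11fip1 (1.97 and 56.9), which bind the same Rab protein of recycling endosomes, lay on opposite sides. Endosomal sorting genes gave 16 lower and 23 higher of 119 (median 0.06, trend-free 0.10), and beside Snx24 the nexin genes Snx30 (8.43 and 0.52 FPKM) and Snx8 (84.5 and 11.4) were lower and Snx10 (46.5 and 232) higher. Golgi and SNARE genes gave 4 lower and 19 higher of 112 (median 0.27, trend-free 0.11), with Stx11 highest (4.33 and 83.1).

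Glycosyltransferases of the Golgi gave 16 lower and 18 higher of 86 (median -0.30, trend-free -0.27). B3gnt8 (33.9 FPKM at 0 h and 1.31 at 4 h) and its relative B3gnt2 (31.3 and 143), which extend the same kind of lactosamine chain, were on opposite sides, although 73.1% of the exonic bases of B3gnt2 are shared with the model Gm28048. St6gal1, which adds sialic acid in alpha-2,6 linkage, was at 22.3 and 1.49 FPKM, and St3gal1, which adds it in alpha-2,3 linkage, at 14.9 and 79.6. Chst12, a chondroitin sulfotransferase, was at 37.8 and 2.04 FPKM.

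Actin regulators were more often higher, with 39 of 101 higher and 13 lower, a median of 0.55 and a trend-free median of 0.64. Coro1c, a coronin, was at 122 FPKM before LPS and 9.83 at 4 h. Marcksl1 was at 27.7 and 1242 FPKM. The formin genes Fmnl3 (15.0 and 1.49 FPKM) and Fmnl2 (1.51 and 23.7) lay on opposite sides, as did the septin genes Septin9 (65.7 and 10.8) and Septin11 (6.64 and 63.6). Among the 40 genes furthest down, Mical1, which oxidises actin filaments, was at 27.1 and 0.99 FPKM and Fblim1, a filamin-binding adaptor, at 45.7 and 2.11. Cilium and centrosome genes gave 18 lower and 7 higher of 76 (median -0.34, trend-free -0.57), with the kinesin gene Kif3a at 26.5 and 2.84 FPKM. Of 39 kinesin and dynein genes 6 were lower and 8 higher (median -0.15, trend-free 0.10), and the median was 0.16 among those with a mean of at least 5 FPKM.

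Families that share a symbol root were counted as a way to reach genes that no pathway list holds. Nudix hydrolases, which clear modified nucleotides and other diphosphates, gave 9 lower and 2 higher of 18 (median -0.98, trend-free -0.54). Nudt16l1 was at 36.9 FPKM before LPS and 5.54 at 4 h, and Nudt7, a peroxisomal member, at 6.59 and 0.76, while Nudt17 was listed at 0 without LPS and at 5.6 FPKM in the 4 h library. Methyltransferase-like genes gave 6 lower and 0 higher of 19 (median -0.65, trend-free -0.60). Mettl8 was the lowest (6.21 and 0.31 FPKM), whereas Mettl3 (7.47 and 4.54) and Mettl14 (4.83 and 3.15), which write m6A, were near the median gene, with differences of 0.10 and 0.18. Tmem genes gave 41 lower and 19 higher of 146 (median -0.53, trend-free -0.31) and Fam genes 25 lower and 16 higher of 114 (median -0.32, trend-free -0.38). Tmem104 (32.7 and 1.51 FPKM) and Fam105a (66.3 and 5.17) were among the lowest of these, and Tmem2 (1.87 and 37.2) and Fam26f (9.08 and 452) among the highest.

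Solute carriers gave 30 lower and 44 higher of 169 (median -0.21, trend-free -0.18), and Slc26a11, a chloride and sulfate transporter, had 34.4, 0.2, 1, 2.56 and 6.09 FPKM over the 5 times. Slc45a4 was at 17.6 FPKM before LPS and 0.62 at 4 h, while Slco3a1 was at 1.79 and 66.4 and the nucleoside importer gene Slc28a2 at 5.22 and 121. Zinc finger genes named Zfp gave 30 lower and 18 higher of 226 (median -0.16, trend-free -0.39), with Zfp395 lowest (9.80 and 0.03 FPKM, about 2 reads at 4 h) and Zfp800 highest (3.09 and 47.4). The Zfp median was 0.097 among those with a mean of at least 5 FPKM in these libraries. Those named Zbtb gave 6 lower and 4 higher of 33 (median -0.07, trend-free -0.16) and coiled-coil genes named Ccdc 13 lower and 10 higher of 54 (median -0.23, trend-free -0.27). Protein phosphatase genes gave 4 lower and 16 higher of 57 (median 0.54, trend-free 0.34). Genes named Phf gave 3 lower and 6 higher of 19, where the median of 0.40 was -0.01 with the length trend removed and 0.23 with both trends removed. Of the 5 highest, 4 were the similar genes Phf11a, Phf11b, Phf11c and Phf11d, from 5.03 to 249 FPKM at 4 h, whose reads may be divided among copies. Genes named Plekh gave 3 lower and 7 higher of 17, and their median of 0.40 was -0.18 with the length trend removed and 0.02 with both trends removed.

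On the higher side, the 20 genes furthest up outside the classic lists ran from 0.06 to 18.7 FPKM at 0 h, with a median of 2.05, and from 52.2 to 3121 FPKM at 4 h, with a median of 330. For 16 of them 4 h was the highest of the 5 libraries. Edn1, the vasoconstrictor endothelin, had 0.15, 342, 141, 59.3 and 8.36 FPKM over the 5 times. Lipg, endothelial lipase, had 0.06, 52.2, 73.1, 34.2 and 4.58 FPKM, and Helz2, a nuclear receptor coactivator, 3.2, 200, 105, 97.4 and 66.9. Bcl2a1a, an inhibitor of apoptosis, had 0.15, 118, 110.3, 66.8 and 20.3 FPKM, and belongs to a cluster of near-identical copies, so its value is uncertain.

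Ligands and receptors of the TNF superfamily, costimulators and checkpoints gave 18 higher and 6 lower of 30, with a median of 2.59 and a trend-free median of 2.67. Cd40 had 2.37, 750, 659, 261 and 62.1 FPKM over the 5 times, Cd69, an early activation receptor, 0.63, 394, 191, 116 and 27.8, Tnfsf9 1.73, 229, 73.2, 31.1 and 22.6, and Tnfsf15 0.69, 144, 57.0, 26.6 and 2.80. The lower members included Vsir, the checkpoint receptor VISTA (145 FPKM at 0 h and 24.4 at 4 h), the death receptor gene Tnfrsf21 (12.1 and 0.40), and the ligand genes Tnfsf12 (126 and 18.2) and Tnfsf13 (46.9 and 10.1). These last neighbours share 48.3% and 60.0% of their exonic bases with a joint gene model, so reads cannot be assigned to either with certainty.

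Of 43 apoptosis and BCL2 family genes, 6 were lower and 19 higher (median 0.55, trend-free 0.40). The caspase-8 inhibitor gene Cflar was at 14.1 FPKM before LPS and 257 at 4 h, and Ripk2 at 5.07 and 101. Bmf, a promoter of cell death, was at 7.14 and 0.01 FPKM, about 1 read at 4 h, and Casp9, the caspase of the mitochondrial pathway, at 12.9 and 1.54. Proteases, serpins and matrix regulators gave 3 lower and 20 higher of 42 (median 0.88, trend-free 0.55). The protease inhibitor gene Serpinb2 (0.73 and 47.0 FPKM) was higher, as were Serpina3f (0.08 and 22.1) and Serpina3g (0.69 and 44.1), close copies of each other. Thbd, or thrombomodulin, which turns thrombin toward anticoagulation, was at 5.08 and 0.17 FPKM.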

How the data were processed

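RNA of mouse bone marrow-derived macrophages was sequenced at 5 times, with 1 library each, on the BGISEQ-500 platform, per the labels' protocols. The authors deposited FPKM per gene, made with Bowtie2 and RSEM on build GRCm38, per the submitters' processing notes. For tool versions, annotation and filters the sources used here give nothing. Symbols turned into dates were restored for 20 genes.

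The 4 h column was multiplied by 1.776, so that the median FPKM ratio to 0 h was 1. Differences of log2(FPKM + 1) were taken, and a gene was called at 2-fold, with no test. All calls were made over the 9795 genes with a mean of at least 1 FPKM. Transcript length and GC came from the longest coding transcript in GENCODE M21 (9751 genes), and trends were removed by running medians in 20 bins. The calculation was tested on simulated data. Python 3.11.15, numpy 2.4.6, pandas 2.3.3, scipy 1.17.1 and matplotlib 3.10.9 were used.

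The 110 gene lists, 2 of them classic and 7 of markers, and the members named were chosen with earlier results of these data known, and some list entries were corrected after list values had been seen. The genes named were the 40 largest differences downward and 20 upward among genes of at least 10 FPKM in either library outside the classic lists, and up to 5 lowest and 5 highest members of each list, and some of these are not reported here. Promoter motifs were chosen after their shares had been seen.

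Total counts were not among the values used here. Depth was estimated from low FPKM, as the number of reads at which the share of values that were whole reads most exceeded chance. That excess was weighted by the number of values. Whole meant within 0.04 reads, or within the rounding of the FPKM where that was wider. A reduction of transcript length was fitted too, and was 25 nt at 0 h and 30 nt at 4 h. At that best match 53.5% of 217 values were whole at 0 h and 60.1% of 238 at 4 h, against 28.9% and 29.6% by chance at any 1 depth. Since the best of many depths was taken, that chance share is too low, and no count test was run.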

Additional observations from a re-analysis of the deposited data

How the results depend on the processing

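With 1 library a side there are no replicates to leave out. No paired analysis was possible because each time had 1 library. Without centring, 1197 genes were higher and 3729 lower. With a pseudocount of 5 in place of 1, 633 genes were lower. Under the other alternatives, including no filter, a mean of at least 5 FPKM in the libraries of 0 h and 4 h, a pseudocount of 0.1, and trends with length, or length and GC, removed, both counts were within 1.5 times those reported. Scaling to equal medians of FPKM and the removal of both trends were added after seeing the data. All 60 genes named by the size of their difference kept their direction and were at least 2-fold apart under the 9 alternatives. This was largely built in, since they were chosen for the largest differences in the same libraries. Of 106 lists with at least 5 genes, the median changed sign relative to the median gene in the following cases, with the cause not tested. With the length trend removed it was 0.087 for tetraspanins, -0.003 for histone demethylases, 0.111 for linker and variant histones, 0.032 for the respiratory chain, -0.014 for genes named Phf and -0.177 for genes named Plekh. With both trends removed it was 0.0 for tetraspanins, -0.004 for phosphoinositide enzymes and -0.008 for histone demethylases. With a mean of at least 5 FPKM it was 0.661 for FOXO, KLF and MITF factors and -0.026 for amino acid transporters. Lists with a median within 0.3 of 0 could cross it too, and only some of these cases are given beside them. With a mean of at least 5 FPKM the median was 0.097 for genes named Zfp, 0.079 for those named Zbtb and -0.037 for endosomal sorting, among others. Genes of few reads at 4 h, such as Snx24, have loosely known folds.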
